A study of Mus musculus with 2 samples.

Results

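The genes described here encode mitochondrial ribosomal proteins. They were chosen by name alone: a gene was a member if its symbol is Mrpl or Mrps followed by a digit, without the ending -ps that marks a pseudogene, and if both gene lists of the study hold it. That gave 78 members out of 12744 genes listed in both, 49 with an Mrpl symbol and 29 with an Mrps symbol. Mrpl stands for the large and Mrps for the small subunit, but Mrps30 and Mrps18a code for large-subunit proteins in mammals and were grouped there.

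Mitochondria keep a small genome of their own, and the proteins it encodes are made on a dedicated ribosome inside the organelle. All of that ribosome's proteins are encoded in the nucleus, made in the cytosol and imported, and the products of the ribosome are core subunits of the respiratory chain. Some of its proteins have counterparts in bacterial ribosomes, and others exist in mitochondria only.

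The study measured single cells of the mouse hippocampus by 3' droplet RNA sequencing with unique molecular identifiers (UMIs), which count each captured transcript once. It compared GlaKO mice, a model of Fabry disease without a working Gla gene for the lysosomal enzyme alpha-galactosidase A, with littermates labelled wt. All animals were 57 weeks old, and hippocampi of both genotypes went through saline perfusion, enzymatic dissociation, removal of debris on a gradient and a sort with the dye 7-AAD. There is 1 library per genotype and the number of animals behind each is not stated, so nothing here could be tested between genotypes. Each difference is between 2 libraries, and the 95% intervals given cover counting error only.

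The wt library held 31929688 UMIs in 5443 cell barcodes, with a median of 5054 UMIs per barcode, and the GlaKO library 29914106 UMIs in 4572 barcodes, with a median of 6101. The libraries shared 6 barcode sequences. The targeted gene Gla was seen with 396 UMIs in wt and 219 in GlaKO cells, which is 12.5 and 7.46 UMIs per 1000000 (CPM). The labels do not say which bases of Gla are missing, and a 3' tag outside them checks nothing. Clusters were named from marker genes, and 7 classes with at least 100 cells in each library were compared. In each class all markers of its own list that the files hold had UMIs in both libraries. The classes did not have the same weight in the libraries: choroid plexus epithelium was 48.1% of wt cells (2608) and 17.8% of GlaKO cells (800), and oligodendrocytes were 15.7% (850) and 29.7% (1337).

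Promoter sequences are shown for 3 members whose values recur below: Mrpl58, which was lower in GlaKO cells of all 7 classes, Mrpl52, whose highest level was in T cells, and Mrps18a, the large-subunit member of a set of 3 paralogs. Each line gives the 120 bases before the start of the gene in RefSeq (build GRCm38.p6), 5' to 3' on the strand of the gene. Capitals mark the core motif of ETS-family transcription factors, CCGGAAG or its reverse complement CTTCCGG. The windows are chr11:115403632-115403751 for Mrpl58, chr14:54426789-54426908 for Mrpl52 and chr17:46110884-46111003 for Mrps18a, all on the + strand.
Mrpl58: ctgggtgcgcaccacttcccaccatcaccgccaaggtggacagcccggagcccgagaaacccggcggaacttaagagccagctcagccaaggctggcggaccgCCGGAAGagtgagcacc
Mrpl52: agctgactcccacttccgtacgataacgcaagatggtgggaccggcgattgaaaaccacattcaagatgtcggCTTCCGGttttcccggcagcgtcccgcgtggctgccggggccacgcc
Mrps18a: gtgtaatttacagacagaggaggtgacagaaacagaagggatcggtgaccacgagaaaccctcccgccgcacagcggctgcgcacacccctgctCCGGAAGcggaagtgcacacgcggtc

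The motif began 17 bases before the start in Mrpl58, 47 before it in Mrpl52 and 26 before it in Mrps18a. The RefSeq table held 75 promoters for 69 of the 78 members, each reaching from 250 bases before to 50 bases after the start. Searched on both strands, CCGGAAG was in 26 of the 75 (34.7%), in 8.86% of all 32851 promoters of the table and in 16.4% of the 12857 promoters of genes in both lists. The 3 promoters shown are all among those with CCGGAAG and do not stand for the members at large. Promoters of Mrps6, Mrpl55, Mrpl42 and Mrps5, also named below, lacked it. The NRF1 motif GCGCATGC was in 10.7% of member promoters, 2.71% of all promoters and 4.99% of those of listed genes. The YY1 motif AAGATGGCG was in 10.7%, 1.40% and 2.84% in the same order. The general promoter motifs were nearer the listed genes: GGGCGG was in 52% of member promoters and 61.7% of those of listed genes, CCAAT in 40% and 37.2%, and TATAAA in 6.67% and 7%. The motifs differ in length and were counted without regard to overlap. A match is a description of the letters, and binding was not measured.

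The summed members were most abundant in choroid plexus epithelium, the secretory epithelium that makes cerebrospinal fluid, and least abundant in microglia, the resident macrophages of the brain. In wt, the choroid plexus held 12207 CPM of member transcripts (95% interval 12157 to 12258) and microglia 3637 CPM (3562 to 3714), a 3.36-fold span. In GlaKO the same classes held 12089 CPM (12009 to 12168) and 3382 CPM (3330 to 3435), a 3.57-fold span. Ttr, a transcript known to be very abundant in choroid plexus, is not analysed here and so not part of the totals; with it, CPM levels in that class and both spans would be smaller, by an amount not measured here. The order of classes was nearly the same in the libraries. In wt, oligodendrocyte precursors followed the choroid plexus with 6355 CPM, then neurons with 5844, astrocytes with 5480, oligodendrocytes with 5313 and T cells with 4641. In GlaKO the levels were 6079 CPM in precursors, 5332 in neurons, 5114 in oligodendrocytes, 5019 in astrocytes and 4689 in T cells. Astrocytes and oligodendrocytes changed places, and their intervals overlapped in each library (5354 to 5608 and 5249 to 5378 in wt, 4912 to 5128 and 5068 to 5161 in GlaKO).

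**Figure D1:**
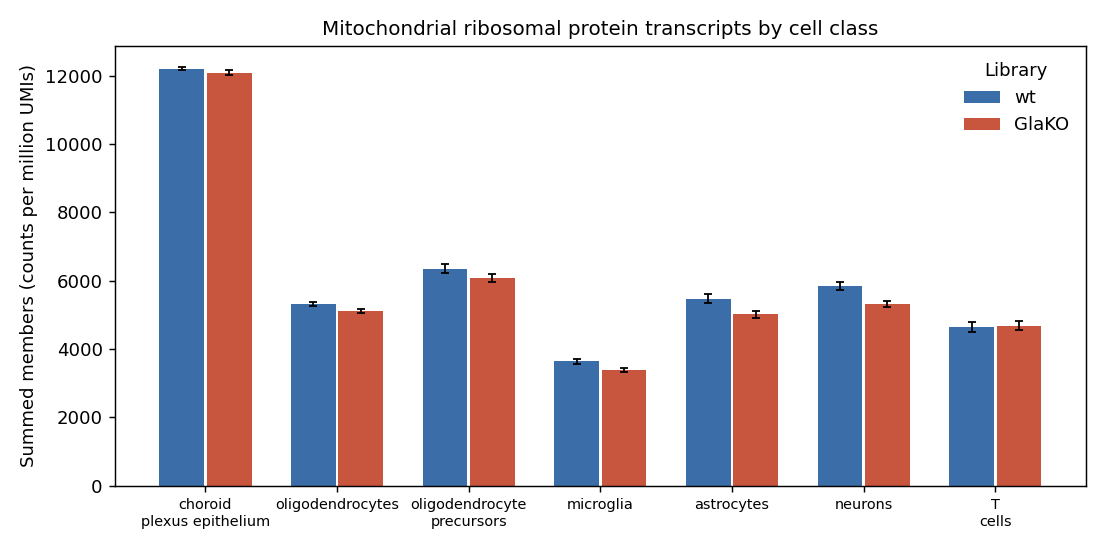
Summed level of the 78 members, in CPM of the class total, for 7 cell classes in the wt and GlaKO libraries. Bars start at 0 and error lines are exact Poisson 95% intervals of the summed count, which cover counting error only; choroid plexus epithelium stands at 12207 and 12089 and microglia at 3637 and 3382.

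Cells differ in depth, so each cell was also thinned to 1000 UMIs. A thinned choroid plexus cell held a mean of 11.6 member UMIs in wt and 11.7 in GlaKO, and a thinned microglial cell 3.70 and 3.37. No cell was shallower than that number. Before thinning, the median cell held 67.5 member UMIs in wt and 103 in GlaKO choroid plexus, and 20 and 22 in microglia.

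Single members showed the same order to different degrees. Choroid plexus epithelium was the highest class for 53 of the 78 members in wt and 55 in GlaKO, while 14.1% and 15.1% of all 12744 genes peaked there. Microglia were the lowest class for 39 members in wt and 46 in GlaKO, against 16.5% and 15.8% of all genes. The highest class was the same in both libraries for 67 members, a share not counted for all genes. Neurons were the highest class for 13 members in wt and 9 in GlaKO, among them Mrps5 and Mrps26, small-subunit proteins with and without a bacterial counterpart. Mrps26 held 166 CPM in wt and 145 CPM in GlaKO neurons, against 114 and 108 CPM in choroid plexus. Mrps5 held 154 and 136 CPM in neurons and 53.6 and 51.8 CPM in choroid plexus. For both genes neurons thus stood above choroid plexus, the reverse of the sum, while microglia were the lowest class as in the sum (39.8 and 39.4 CPM for Mrps5, 39.4 and 34.5 CPM for Mrps26).

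**Figure D2:**
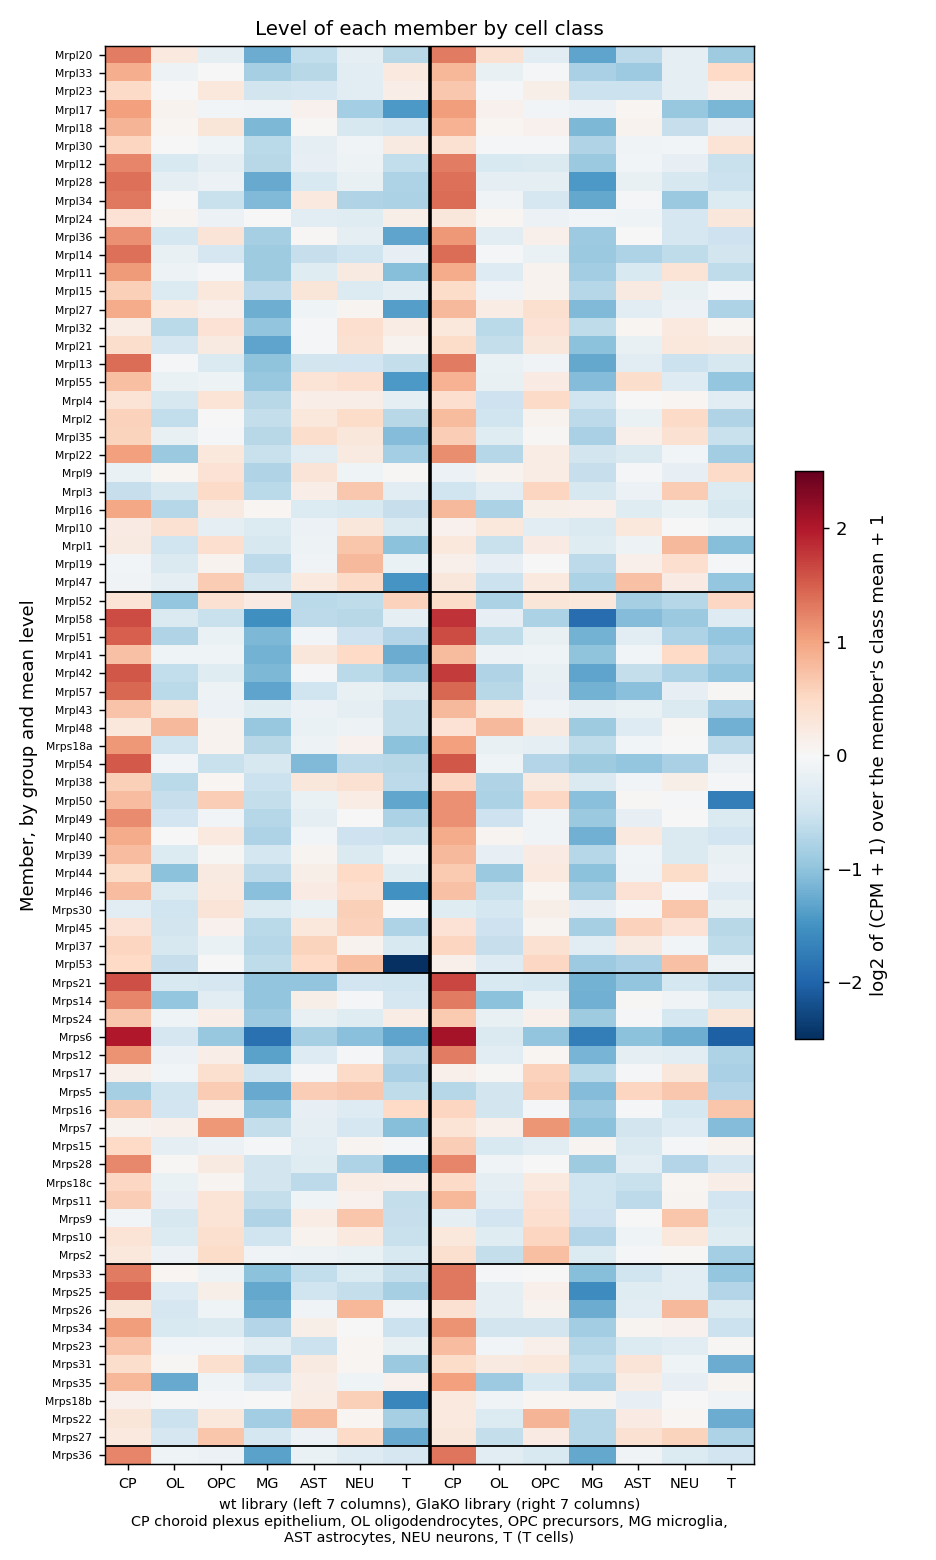
Level of each of the 78 members (one line per gene) in 7 cell classes of the wt library (left) and the GlaKO library (right), as log2 of CPM + 1 over the member's mean of the 7 classes in that library + 1. Black horizontal lines part the groups (from the top: large subunit with a bacterial counterpart, large subunit specific to mitochondria, small subunit with a counterpart, small subunit specific to mitochondria, Mrps36); choroid plexus columns are red for most members and microglia columns blue.

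Levels differed widely between members. A UMI stands for 1 captured 3' end, so these levels are not divided by transcript length. Averaged over classes and libraries with equal weight, members ranged from 3.96 CPM for Mrpl53 to 251 CPM for Mrps33, with a median of 70.5 CPM, and the 10 most abundant made up 28.7% of the sum. Those 10 were the small-subunit genes Mrps33 (251 CPM), Mrps21 (237), Mrps14 (166), Mrps24 (135) and Mrps6 (125) and the large-subunit genes Mrpl52 (209), Mrpl20 (187), Mrpl33 (186), Mrpl58 (126) and Mrpl51 (124). Counts of Mrps24, Mrps6 and Mrps34 could include reads of genes that overlap them on the same strand (Urgcp, Slc5a3 and Nme3). In all, 13 members have such a neighbour in the annotation, 36 have an overlapping gene on the opposite strand and 3 have a pseudogene named for them.

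The proportion of large and small subunits differed modestly between classes. The small subunit took 37.4% of the UMIs of both subunits in wt choroid plexus (37.2% to 37.6%, Clopper-Pearson interval) and 37.6% in GlaKO (37.3% to 37.9%). In microglia it took 34.2% in wt (33.2% to 35.2%) and 33.1% in GlaKO (32.3% to 33.8%), clear of the choroid plexus intervals. Over all classes and both libraries that share lay between 33.1% (GlaKO microglia) and 37.6%. The peak in choroid plexus was seen in each group: 22 of 30 large-subunit members with a bacterial counterpart in either library, 14 of 21 large-subunit members specific to mitochondria in wt and 16 in GlaKO, 10 and 9 of 16 small-subunit members with a counterpart, and 6 and 7 of 10 small-subunit members specific to mitochondria. Mrps36, which despite its name is now known as a component of the alpha-ketoglutarate dehydrogenase complex of the citric acid cycle, also peaked there (233 CPM in wt and 262 CPM in GlaKO).

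Mrpl58 varied most between classes among members with at least 100 UMIs in every class. It codes for a peptidyl-tRNA hydrolase that became part of the large subunit. In wt it held 424 CPM in choroid plexus, 117 in T cells, 106 in oligodendrocytes, 92.0 in precursors, 86.3 in astrocytes, 84.0 in neurons and 46.8 in microglia. In GlaKO the same classes held 405, 91.7, 100.5, 66.1, 53.9, 60.1 and 30.2 CPM. The span between highest and lowest class was 3.18 on the log2 scale in wt and 3.74 in GlaKO. The next members by this measure were Mrpl42, Mrpl28, Mrpl57, Mrpl51, Mrps21, Mrps36, Mrpl54, Mrpl20 and Mrps12, all highest in choroid plexus in both libraries.

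Mrps6, a small-subunit protein with a bacterial counterpart, had a still wider span but only 71 UMIs in its smallest class, T cells. It held 476 CPM in wt and 569 CPM in GlaKO choroid plexus. Its lowest levels were 31.5 CPM in wt microglia and 31.4 CPM in GlaKO T cells, beside 39.6 CPM in GlaKO microglia. Slc5a3, a myo-inositol transporter gene annotated within the same stretch of chromosome 16, held 29.2 and 37.9 CPM in choroid plexus and was highest in oligodendrocytes (58.0 CPM) and neurons (73.2 CPM) of the wt library. In GlaKO, Slc5a3 held 76.6 CPM in oligodendrocytes and 72.0 CPM in neurons. The class order of Mrps6 was not that of Slc5a3 in either library. Between libraries, Slc5a3 was higher in GlaKO in choroid plexus and oligodendrocytes, where Mrps6 was higher by its interval. Slc5a3 was also higher in precursors (38.4 and 48.1 CPM) and nearly level in microglia, astrocytes and neurons. The part of Slc5a3 reads in the Mrps6 levels and ratios was not tested.

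Mrpl52, a large-subunit protein specific to mitochondria, departed from the common pattern. It was highest in T cells of wt (330 CPM), with 288 CPM in precursors, 282 in choroid plexus and 257 in microglia. In GlaKO the T cells held 283 CPM and the choroid plexus 274. It was lowest in wt oligodendrocytes (112 CPM) and in GlaKO astrocytes (111 CPM).

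The question of the study is how GlaKO cells differ from wt. Pooled over all cells, members took 9223 CPM in wt and 6656 CPM in GlaKO, a log2 ratio of -0.47 (-0.48 to -0.46). Within classes the differences were much smaller. The summed log2 ratio was -0.01 in choroid plexus (-0.03 to -0.003), -0.05 in oligodendrocytes (-0.08 to -0.03), -0.06 in precursors (-0.10 to -0.02), -0.10 in microglia (-0.14 to -0.07), -0.13 in astrocytes (-0.17 to -0.08), -0.13 in neurons (-0.17 to -0.10) and 0.01 in T cells (-0.05 to 0.08). The pooled value was taken over libraries in which the class with the most member transcripts made up 48.1% and 17.8% of cells. Within a class the lowest GlaKO level, in neurons, was 0.912 of the wt level. Classes of several clusters mix them in unequal shares. Precursors held a cluster at -0.29 (-0.37 to -0.21) and another at -0.08 (-0.13 to -0.04), both below their class value, and with equal cluster weights the class stood at -0.16. Microglia held a large cluster at -0.10 (-0.14 to -0.06) and a small one at -0.28 (-0.46 to -0.10), and stood at -0.18 with equal weights. The 3 oligodendrocyte clusters stood at 0.004, -0.04 and -0.07, and the 3 neuronal ones at -0.05, -0.12 and -0.19.

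Of the measured members, meaning those with a summed count of at least 100 in a class, more lay below equal levels than above in each class. In choroid plexus 45 of 78 were lower in GlaKO, where 39% of all genes measured were lower, and the member median was -0.02 beside an all-gene median of 0.06. In oligodendrocytes 52 of 76 were lower (all genes 43.4%), with medians of -0.05 and 0.03. In precursors 42 of 70 were lower (48.8%), with medians of -0.07 and 0.01, and in microglia 47 of 73 (53.5%), with medians of -0.10 and -0.02. In astrocytes 43 of 67 were lower (50.6%), with medians of -0.12 and -0.003, and in neurons 56 of 74 (50.2%), with medians of -0.15 and -0.001. In T cells 21 of 35 were lower (40.9%), with medians of -0.05 and 0.06. The member median minus the all-gene median lay between -0.15 (neurons) and -0.07 (precursors) in the 7 classes, which is a description of 1 pair of libraries.

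**Figure D3:**
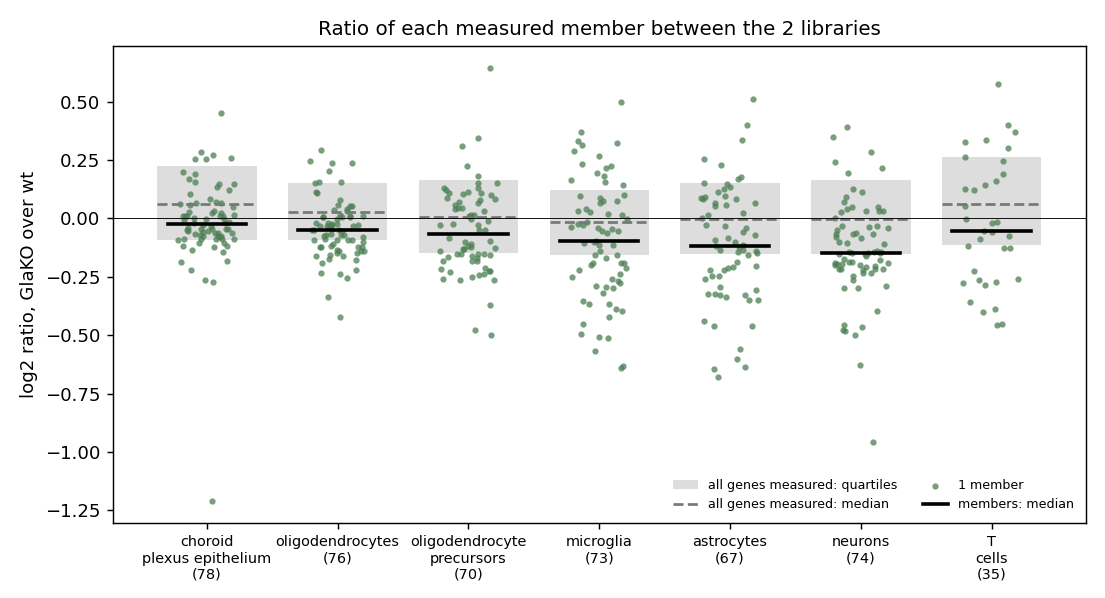
log2 ratio of GlaKO over wt for each measured member (points; the number measured is under the class name) in 7 cell classes, with the members' median (black line), the median of all genes measured in the class (dashed line) and their quartiles (grey band). The member median lies below the all-gene median in each class, by the widest margin in neurons (-0.15 beside -0.001).

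Few single members stood apart from equal levels. In choroid plexus, the deepest class, the interval lay above equal levels for 9 members and below for 14, while 23.8% and 12% of all measured genes did so. In oligodendrocytes these were 2 members above (all genes 12.6%) and 6 below (8.04%), and in precursors 1 above (7.48%) and 3 below (6%). In microglia no member lay above (7.34%) and 11 of 73 lay below (8.6%). In astrocytes there were 0 above (6.85%) and 9 of 67 below (6.09%), in neurons 0 above (10.4%) and 10 of 74 below (8.91%), and in T cells 0 above (12.8%) and 1 below (7.01%). As a share, members above equal levels were under the background in each class. Those below were over it in choroid plexus (17.9% of members), microglia (15.1%), astrocytes (13.4%) and neurons (13.5%), and near or under it in oligodendrocytes (7.89%), precursors (4.29%) and T cells (2.86%).

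Differences of 1.5-fold or more were rare. Over 473 pairs of a measured member and a class, 1 was at least 1.5-fold higher in GlaKO and 9 were at least 1.5-fold lower, beside 2.93% and 1.57% of all 47888 pairs of gene and class. The member above that size was Mrps22 in precursors, a small-subunit protein specific to mitochondria, with 27.5 CPM in wt (38 UMIs) and 43.1 in GlaKO (86 UMIs), a log2 ratio of 0.65 (0.08 to 1.24). The 9 were Mrpl53 in choroid plexus, Mrps23 and Mrpl58 in microglia, Mrpl58, Mrpl57, Mrpl2 and Mrpl42 in astrocytes, and Mrpl55 and Mrps18b in neurons. In these main values the 9 lower pairs were a share near that of all pairs, and the 1 higher pair a share under it. With cells thinned to 1000 UMIs, and so fewer counts per gene, 29 pairs were at least 1.5-fold higher and 50 lower. The share of all pairs past that size was not counted after thinning or under the other alternatives.

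Mrpl58 was the member lower in GlaKO by its interval in the most classes, 5 of 7. From the levels above, its log2 ratio was -0.06 in choroid plexus (-0.13 to -0.003), -0.07 in oligodendrocytes (-0.23 to 0.08), -0.48 in precursors (-0.84 to -0.11), -0.63 in microglia (-0.998 to -0.26), -0.68 in astrocytes (-1.09 to -0.27), -0.48 in neurons (-0.80 to -0.16) and -0.36 in T cells (-0.78 to 0.07). No other member was lower by its interval in 4 or more classes, and none was higher in that many. Lower in all 7 classes by sign were also Mrps5, Mrps21 and Mrps34, out of 35 members measured in all 7. None of those 35 was higher in all 7. These signs did not hold throughout: with cells thinned to 1000 UMIs, Mrpl58 stood at 0.22 and Mrps34 at 0.011 in oligodendrocytes, and without the 4% of barcodes with the highest doublet scores Mrpl58 stood at 0.033 in choroid plexus. The share of all genes with 1 direction over as many classes, by sign or by interval, was not counted. These counts of members therefore have no background beside them.

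Mrpl55, a large-subunit protein with a bacterial counterpart, showed the lowest ratio among neurons. Wt neurons held 86.5 CPM (169 UMIs) and GlaKO neurons 44.5 CPM (123 UMIs), a log2 ratio of -0.96 (-1.31 to -0.61). It was also lower in oligodendrocytes (57.6 and 49.4 CPM, -0.22, -0.44 to -0.002), where the interval just cleared equal levels. In microglia it stood at -0.35 (-0.77 to 0.07), in astrocytes at -0.12 (-0.50 to 0.27) and in choroid plexus at -0.09 (-0.21 to 0.03). Precursors were the only class with enough UMIs in which it was higher, at 58.7 and 65.1 CPM (0.15, -0.26 to 0.57). It was thus lower in 5 of the 6 classes where it was measured, and by its interval in 2; the difference between classes was not tested. Mrps23, of the small subunit, was lower in 2 classes by its interval, microglia (45.2 and 29.0 CPM, -0.64, -1.02 to -0.26) and neurons (55.8 and 39.4 CPM, -0.50, -0.90 to -0.10).

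In astrocytes 4 large-subunit members were at least 1.5-fold lower. The share of all genes that far lower was counted over the 7 classes together (1.57% of pairs), not in astrocytes alone. Of the 4 members, Mrpl58 held 86.3 and 53.9 CPM, Mrpl57 78.7 and 50.3 CPM (-0.65, -1.08 to -0.22), Mrpl2 72.7 and 46.7 CPM (-0.64, -1.09 to -0.19) and Mrpl42 108 and 71.3 CPM (-0.60, -0.97 to -0.24). Of these Mrpl2 has a bacterial counterpart and the other three do not. The highest ratios in astrocytes were those of Mrpl10 (0.51, -0.07 to 1.11), Mrpl40 (0.40, -0.13 to 0.95) and Mrpl45 (0.34, -0.24 to 0.93), none clear of equal levels. As a sum, large-subunit members specific to mitochondria were -0.25 in astrocytes (-0.34 to -0.16) and those with a counterpart -0.08 (-0.15 to -0.01).

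In choroid plexus the lowest ratio was that of Mrpl53, the least abundant member, with 7.51 CPM in wt (137 UMIs) and 3.25 CPM in GlaKO (24 UMIs), a log2 ratio of -1.21 (-1.90 to -0.58). After thinning it was -0.38. Among abundant members Mrps18a (198 and 164 CPM, -0.27, -0.37 to -0.18) and Mrps25 (256 and 213 CPM, -0.26, -0.35 to -0.18) were lowest. Mrpl50, a large-subunit protein specific to mitochondria, was highest with 77.2 and 106 CPM (0.45, 0.32 to 0.58), and Mrps6 stood at 0.26 (0.21 to 0.31). Mrpl47 (0.28, -0.01 to 0.58) and Mrps27 (0.27, -0.02 to 0.55) had similar ratios on fewer UMIs. Members therefore differed in both directions around a sum that was nearly level.

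In oligodendrocytes Mrpl47 (-0.42, -0.88 to 0.04), Mrps34 (-0.34, -0.54 to -0.13) and Mrps15 (-0.25, -0.45 to -0.06) were lowest. Mrpl15 (0.29, 0.08 to 0.50), Mrps35 (0.24, -0.17 to 0.67) and Mrps6 (0.24, 0.07 to 0.41) were highest. In precursors Mrps18a (97.8 and 69.1 CPM, -0.50, -0.85 to -0.15) was lowest, followed by Mrpl58 and Mrps34 (-0.37, -0.79 to 0.04). Mrps22 was followed by Mrpl27 (0.34, -0.01 to 0.70) and Mrpl13 (0.31, -0.13 to 0.76). In both classes members with an interval clear of equal levels lay on either side.

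In microglia Mrpl44 (-0.57, -1.13 to 0.004) followed Mrps23 and Mrpl58 at the low end, and Mrpl37 (0.50, -0.14 to 1.18), Mrpl32 (0.37, -0.01 to 0.76) and Mrps6 (0.33, -0.06 to 0.74) were highest. In neurons Mrpl16 (0.39, -0.12 to 0.92), Mrpl1 (0.35, -0.01 to 0.72) and Mrps27 (0.29, -0.30 to 0.89) were highest. In T cells Mrps26 (-0.46, -0.96 to 0.05), Mrps33 (171 and 125 CPM, -0.45, -0.81 to -0.10) and Mrpl14 (-0.40, -0.94 to 0.14) were lowest, and Mrpl54 (0.57, -0.03 to 1.21), Mrpl34 (0.40, -0.15 to 0.97) and Mrpl9 (0.37, -0.20 to 0.96) highest. Apart from Mrps23, Mrpl58 and Mrps33, the intervals of these members included equal levels.

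Mrps18a, Mrps18b and Mrps18c are paralogs of 1 bacterial protein, and they sit at different places of the ribosome: Mrps18a in the large subunit, the others in the small one. Mrps18a was the most abundant in choroid plexus, with 198 CPM in wt and 164 in GlaKO, beside 88.7 and 83.2 CPM for Mrps18c and 34.2 and 37.9 CPM for Mrps18b. Their ratios did not share a pattern over classes. Mrps18a was lower by its interval in choroid plexus, precursors and neurons (-0.30, -0.58 to -0.01), Mrps18b in neurons (48.6 and 31.5 CPM, -0.63, -1.06 to -0.19), and Mrps18c in no class. Mrps18c lay between -0.20 and 0.13 in all 7 classes.

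**Figure D4:**
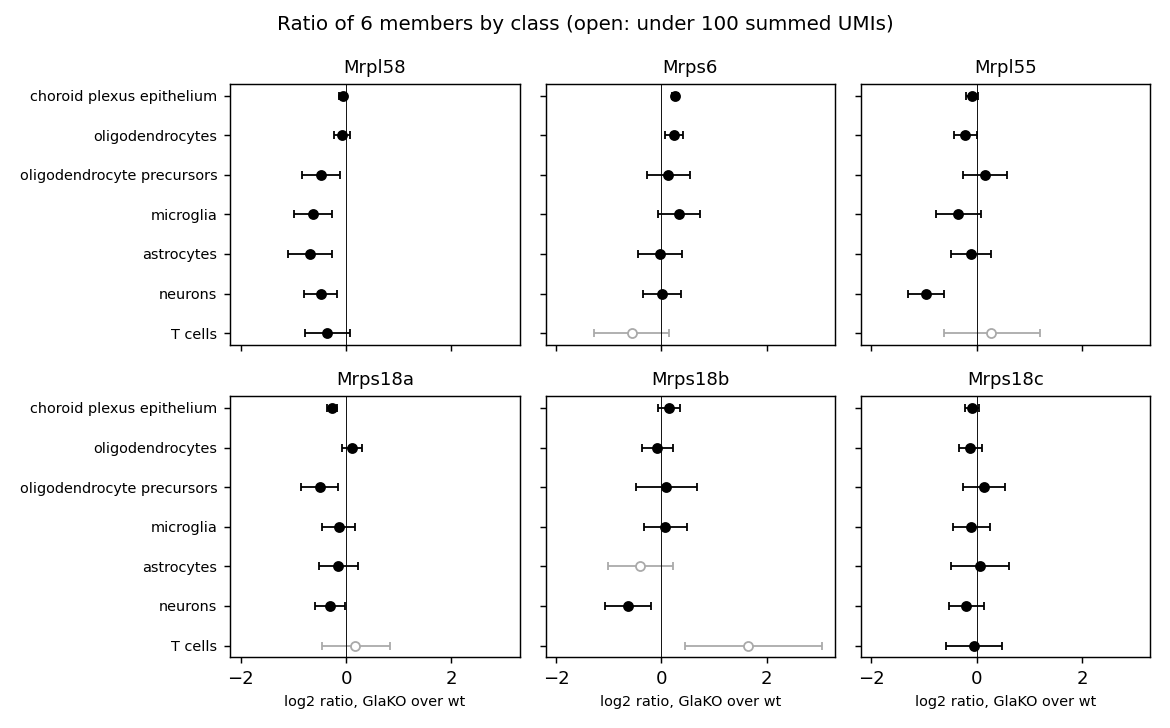
log2 ratio of GlaKO over wt in 7 cell classes for Mrpl58, Mrps6, Mrpl55 and the paralogs Mrps18a, Mrps18b and Mrps18c, with exact 95% intervals that cover counting error only. Open grey points rest on fewer than 100 summed UMIs; Mrpl58 lies below 0 in each class, and Mrpl55 is lowest in neurons at -0.96.

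The proteins made by this ribosome are encoded by 13 mitochondrial genes, and in choroid plexus their transcripts differed from the members in their ratio. They held 24752 CPM in wt and 15613 CPM in GlaKO choroid plexus, a log2 ratio of -0.66 (-0.67 to -0.66) with 13 of 13 genes lower, where the members stood at -0.01. Both values pool clusters present in unequal shares. The mitochondrially encoded share was lower in GlaKO in clusters 2, 9 and 4 but higher in cluster 5 (0.36% and 0.47%). As a sum, the mitochondrially encoded genes stood at -0.05 in oligodendrocytes, -0.15 in precursors, 0.09 in microglia, -0.03 in astrocytes, -0.13 in neurons and -0.04 in T cells. Single genes in these classes lay on both sides of their sum. The highest was mt-Nd4, from 0.33 in T cells to 0.69 in astrocytes. The lowest was mt-Nd4l, from -0.96 in T cells to -0.71 in microglia. Nuclear genes of the respiratory chain were lower as a sum in each class, from -0.05 in T cells to -0.18 in microglia, with 61 of 78 measured genes lower in choroid plexus (39% of all genes) and 68 of 74 in microglia (53.5% of all genes). Like the members, these nuclear genes were highest in choroid plexus, with 118200 CPM in wt and 112680 CPM in GlaKO. They were lowest in microglia, with 14047 and 12432 CPM, so the class pattern was not particular to the members. Members were scarcer beside respiratory-chain transcripts in choroid plexus (0.103 member UMIs per respiratory-chain UMI in wt, 0.107 in GlaKO) than in the other classes, where that ratio lay between 0.192 (wt astrocytes) and 0.272 (GlaKO microglia).

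Choroid plexus cells formed 4 clusters present in both libraries, and member levels differed between them more than between genotypes. In wt they held 9368, 11577, 13168 and 14407 CPM of member transcripts in the order of clusters 2, 9, 4 and 5, and in GlaKO 9189, 11304, 12515 and 13760 CPM. In the same order, mitochondrially encoded UMIs took 4.68%, 3.27%, 1.73% and 0.36% of the cluster total in wt and 3.02%, 2.24%, 1.34% and 0.47% in GlaKO. Among these 4, clusters with fewer mitochondrial transcripts held more member transcripts, in both libraries. These are 4 groups of cells from the same libraries, so the order is a description. Depth changed along it as well. In the same order the median cell held 4900, 5609, 7244 and 5959 UMIs in wt. In GlaKO it held 6092.5, 7820, 9417 and 9704.5 UMIs. With the class cut into 5 parts by depth, the shallowest held 10129 CPM of members in wt and 8777 in GlaKO. The deepest held 13299 and 12657 CPM. The part of depth in the order of clusters was not tested. Within clusters the log2 ratio of members was -0.03 in clusters 2 and 9 and -0.07 in clusters 4 and 5. Cluster 4 held 362 of the 800 GlaKO cells and 699 of the 2608 wt cells, and a further cluster of 16 cells was seen in wt only. That cluster broke the order: with 0.77% mitochondrially encoded UMIs it held 12075 CPM of members, less than cluster 4.

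**Figure D5:**
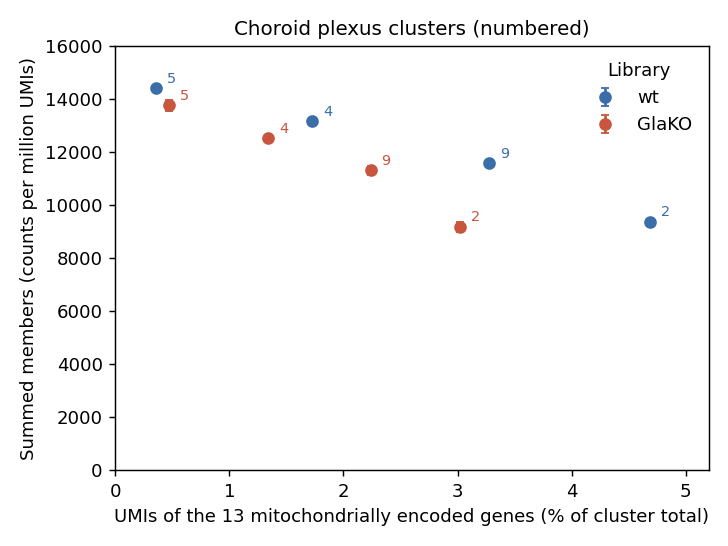
Summed member level (CPM, vertical axis from 0) against the share of UMIs from the 13 mitochondrially encoded genes (percent, horizontal axis) for the 4 numbered choroid plexus clusters found in both libraries. Error lines are 95% intervals from the normal approximation to the Poisson count and cover counting error only. From cluster 2 through 9 and 4 to 5 the share goes down (4.68% to 0.36% in wt) while the member level goes up (9368 to 14407 CPM in wt). Median depth, not shown, differs between the clusters as well.

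Other genes that serve the same ribosome were read from lists. The 6 proteins of the ribosome with other symbols, such as Dap3 and Ptcd3, were lower for 5 of 6 in choroid plexus, microglia and astrocytes, with sums of -0.09, -0.13 and -0.19. Of all measured genes 39%, 53.5% and 50.6% were lower there, and by interval 2, 0 and 1 of the 6 were. In neurons 4 (all genes 50.2%), in oligodendrocytes 3 (43.4%) and in precursors 2 (48.8%) of the 6 were lower. Translation factors summed to 0.02 in choroid plexus, with 9 of 13 higher, where 61% of all measured genes were higher, but 1 higher and 2 lower by interval. They summed to -0.24 in astrocytes, where 4 were measured. Assembly factors summed to between -0.15 (microglia) and 0.02 (oligodendrocytes). Aminoacyl-tRNA synthetases of mitochondria, in a list that also holds the amidotransferase genes Qrsl1, Gatb and Gatc, had sums above equal levels, from 0.24 in neurons to 0.63 in astrocytes. The median measured gene of the list was below equal levels in precursors (-0.13), astrocytes (-0.13) and neurons (-0.15). The sums there do not stand for the typical gene of the list. Medians were also under the sums in oligodendrocytes (0.03 and 0.43), choroid plexus (0.07 and 0.28) and microglia (0.24 and 0.56). In T cells, with 2 genes measured, both were 0.35. Lars2, the leucyl-tRNA synthetase, had the highest ratio of that list in the 6 classes outside the choroid plexus, at 0.57 in oligodendrocytes, 0.60 in precursors, 0.72 in microglia, 0.78 in astrocytes, 0.43 in neurons and 0.48 in T cells. In choroid plexus that place was taken by Hars2, at 0.49. In microglia 7 of 8 measured genes of the list were higher, all but Gatc, where 46.5% of all genes were. By interval 1 of the 8 was higher (7.34% of all genes). In astrocytes only Lars2 of 4 was higher (49.4% of all genes), and in neurons 3 of 11 (49.8%). Of 6 genes of mitochondrial transcription, 5 were measured in choroid plexus and 5 in oligodendrocytes, with 4 higher in each, where 61% and 56.6% of all genes were. The sums of 0.10 (-0.03 to 0.23) and 0.14 (-0.03 to 0.32) were not clear of equal levels. Neurons had 3 of these transcription genes measured, precursors 2, microglia and astrocytes 1 each and T cells 0. Cytosolic ribosomal protein genes, taken by symbol with a few kinase genes of like name, summed to between -0.15 in neurons and 0.07 in choroid plexus.

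Other values differed between the libraries in the same classes. Transcripts of choroid plexus cells were present at low levels in other classes. By 8 markers (Folr1, Clic6, Kl, Kcnj13, Prlr, Otx2, Slc4a5 and Aqp1) there were more of them in wt. Enpp2, the other marker of the list that was present, was left out. With Enpp2 the sums were 2266 CPM in wt and 2255 CPM in GlaKO oligodendrocytes, 667 and 654 in precursors, and 353 and 476 in neurons. They were 237 and 85.6 in microglia, 295 and 142 in astrocytes and 198 and 111 in T cells. Without Enpp2 the 8 markers summed to 65.1 CPM in wt and 13.6 CPM in GlaKO microglia, which is 1.42% and 0.36% of their choroid plexus level. At those percentages choroid plexus RNA would carry 173 and 43.8 CPM of member transcripts. In astrocytes the percentages were 1.92% and 1.07%, in neurons 2.69% and 2.54%, in oligodendrocytes 1.45% and 0.54%, in precursors 1.57% and 1.02% and in T cells 1.76% and 0.45%. Of the 8 markers, Aqp1 was at 0 in GlaKO oligodendrocytes, precursors, microglia, astrocytes and T cells, and Slc4a5 in GlaKO astrocytes and wt T cells. With that share of the choroid plexus profile subtracted, the summed member ratio was -0.07 in microglia, -0.11 in astrocytes, -0.14 in neurons, -0.04 in oligodendrocytes, -0.06 in precursors and 0.05 in T cells. Mrpl58 then stood at -0.52 in microglia, -0.67 in astrocytes, -0.55 in neurons and -0.47 in precursors. Oligodendrocyte transcripts showed the reverse: the 10 markers of that list, none of them at 0, summed to 533 CPM in wt and 1033 CPM in GlaKO microglia, to 580 and 1445 CPM in astrocytes, to 610 and 1213 CPM in neurons and to 266 and 492 CPM in choroid plexus. In T cells the sums were 601 and 1683 CPM. Markers of erythroid cells moved further: the 4 in the files, none of them at 0 in any class, summed to between 22.8 and 42.0 CPM in wt and between 93.0 and 184 CPM in GlaKO classes, a log2 ratio of 1.60 (choroid plexus) to 2.37 (astrocytes). The 10 microglial markers summed to 300 CPM in wt and 650 CPM in GlaKO T cells and to 231 and 368 CPM in astrocytes, but to 354 and 245 CPM in neurons. The part of oligodendrocyte, erythroid and microglial RNA in the member ratios was not tested.

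Depth and stress genes differed as well. The median GlaKO cell was deeper than the median wt cell in each class, for example 8600 against 5860.5 UMIs in choroid plexus and 5507 against 4346 in neurons. When each class was cut into 5 parts of like depth, the summed member ratio in the shallowest part was -0.21 in choroid plexus, -0.32 in oligodendrocytes, -0.23 in precursors, -0.20 in microglia, -0.25 in astrocytes, -0.32 in neurons and 0.05 in T cells. In the deepest part it was -0.07, -0.10, -0.09, -0.11, -0.22, -0.15 and 0.08. The 3 parts between lay at -0.03, -0.06 and -0.05 in choroid plexus, at -0.04, 0.03 and 0.02 in oligodendrocytes and at -0.12, -0.001 and -0.01 in microglia, each in order of depth. They lay at -0.18, -0.33 and -0.09 in precursors, at -0.18, -0.28 and -0.06 in astrocytes, at -0.13, -0.21 and -0.26 in neurons and at -0.03, 0.01 and -0.09 in T cells. Members were thus lower at all 5 depths in choroid plexus, precursors, microglia, astrocytes and neurons, with the middle parts of microglia near equal levels, while oligodendrocytes were lower in 3 parts and slightly higher in 2. Heat-shock genes were higher in GlaKO as a sum in 6 classes, from 0.08 in precursors (0.04 to 0.11) to 0.42 in choroid plexus (0.41 to 0.43). In T cells their sum of 0.02 (-0.02 to 0.07) was not clear of equal levels, and 7 of 12 measured genes were lower (40.9% of all genes). Immediate-early genes lay between -0.20 in neurons and 0.36 in astrocytes. The part of stress genes in the member ratios was not tested.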

How the data were processed

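The authors deposited raw counts of UMIs per gene and cell barcode, in 1 matrix per library, taken here without change. Per the submitters' processing notes, the genome build was mm10 and the tools were Seurat 4, R 4.1.3 and Cell Ranger 6.0.1. Which gene annotation was used, and how cells were filtered, is not given in the sources used here. Members, gene lists and named genes were chosen with earlier results of these data known.

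Limits of at least 500 genes and at most 20% mitochondrial UMIs removed no barcode. Scrublet in scanpy 1.11.5 marked 25 wt (0.459%) and 70 GlaKO barcodes (1.53%) as doublets, which were removed. At under 0.5% it cannot be said to have worked in wt, so removing the 4% with the highest score was an alternative. Both libraries were clustered together (2000 variable genes, 30 components, 15 neighbours, Leiden resolution 1.0), without members, mitochondrial, ribosomal protein, stress and sex-linked genes. A cluster was named from at least 3 detected markers with a mean log2 fold of at least 1.0, and names are written with "-like" understood. Choroid plexus was named without Ttr, which is not analysed here.

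UMIs were summed per class and library and divided by the class total over genes in both lists. Log2 ratios have exact conditional 95% intervals and levels exact Poisson intervals. A gene was measured in a class from a summed count of 100. The intervals take UMIs as independent and cover counting error only. Gene positions are those of GENCODE for GRCm38. The ratio code was checked on simulated counts. Named members were the 10 most abundant, the 10 with the widest range over classes, the 3 highest and 3 lowest ratios per class, those with the same direction by interval in 4 or more classes, and the Mrps18 paralogs; Mrps5, Mrps7 and Mrpl42 in other places were chosen after their values were seen. Alternatives changed the count minimum, scaling (TMM of edgeR 4.0.16), depth, doublet removal, clustering and weights of clusters or depth parts. Subtraction of choroid plexus RNA, with Enpp2 left out of its markers, was chosen after seeing the data.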

Additional observations from a re-analysis of the deposited data

Results flagged for a closer look

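For 2 members the ratio of GlaKO over wt pointed opposite ways in 2 classes, with both intervals clear of equal levels. Mrpl42, a large-subunit protein specific to mitochondria, had a log2 ratio of 0.16 in choroid plexus epithelium, where it held 329 CPM in wt and 367 CPM in GlaKO, and of -0.60 in astrocytes. Mrps7, a small-subunit protein with a bacterial counterpart, had a log2 ratio of 0.19 in choroid plexus epithelium (89.0 and 102 CPM) and of -0.51 in microglia (55.1 and 38.8 CPM). The difference between the classes was not tested, since there is 1 library per genotype.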

How the results depend on the processing

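No paired analysis was possible because each genotype has 1 library, so the labels share only 1 number and no test was made. The limits are the single library per genotype, the shallow classes (T cells had 35 measured members) and RNA of other cells. The main values were 1 pair of member and class at least 1.5-fold higher, 9 lower, and spans of 3.36 in wt and 3.57 in GlaKO. The summed ratio kept its sign in oligodendrocytes, precursors, microglia, astrocytes and neurons under each alternative run. It did not in choroid plexus (main value -0.01), where thinning to 1000 UMIs gave 0.010 (median 0.013) and removing the 4% with the highest doublet scores 0.016 (median 0.025). The cause was not tested. In T cells, where the interval included equal levels, the sum ranged from -0.22 to 0.05. Under those alternatives Mrps34 in oligodendrocytes turned to 0.011 (thinned) and Mrpl58 in choroid plexus to 0.033 (doublets). TMM gave choroid plexus -0.10 (median -0.11), totals without mitochondrially encoded UMIs -0.028 (-0.037), equal depth parts -0.080 (-0.089) and equal clusters -0.053 (-0.064).

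Thinning gave a median of -0.021 in precursors, -0.065 in astrocytes and -0.11 in neurons, a sum of -0.20 in neurons, 29 pairs at least 1.5-fold higher and 50 lower, and a span of classes of 3.13 in wt and 3.46 in GlaKO, all with fewer UMIs. Equal depth parts gave sums of -0.17 in precursors, -0.19 in astrocytes and -0.21 in neurons, medians of -0.16 in precursors and -0.042 in microglia, and 18 pairs lower. Equal clusters gave precursors -0.16 (median -0.15), microglia -0.18 (-0.16), 5 pairs higher, 23 lower, and spans of 3.59 and 3.92. Clustering each library alone gave neurons -0.24 (-0.23). A minimum of 20 UMIs gave 9 pairs higher and a T cell median of 0.035. A minimum of 500 gave 0 pairs higher, 0 lower and medians of -0.11 in precursors and -0.10 in neurons. In T cells it gave -0.22 (-0.22), the ratio of Mrpl52 alone and not that of the summed members. Without doublet removal the T cell median was 0.014 and 3 pairs were higher. With the 4% removed the spans were 3.12 and 3.41, and with each library's top cell per gene left out the wt span was 3.45. Subtraction of choroid plexus RNA gave a microglia median of -0.056 and 3 pairs higher.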
